A study of Mus musculus with 2 samples.

Results

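Of 17878 kept cells of the DMSO library, 597 (3.34%, 95% exact binomial interval 3.08 to 3.61%) held 3 or more UMIs of Tcl1 and Klf4 together and none of Rhox6 or Rhox9. A UMI is 1 distinct tagged transcript, and kept cells had at least 500 genes and at most 10% of their UMIs from the mitochondrial genome. These cells are called Tcl1/Klf4-high here, after the genes that chose them. They were set beside the 8673 kept DMSO cells (48.5%) without a UMI of any of the 4 genes, called the comparison cells. The remaining kept cells, with 1 or 2 UMIs of Tcl1 and Klf4 or with UMIs of Rhox6 or Rhox9, belong to neither set. The cells were chosen by their UMIs of Tcl1, Klf4, Rhox6 and Rhox9, so the levels of these 4 genes are a description and support nothing. All intervals below are at 95% and cover counting error only, since cells of 1 library are not replicates of a condition.

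The cells came from embryoid bodies, aggregates in which embryonic stem cells begin to differentiate, made from male J1 mouse embryonic stem cells. One culture received DMSO, the solvent control, and the other dTAG13, a degrader of proteins that carry an engineered FKBP12(F36V) tag, each for 2 days. Trypsin-dissociated, strained cells were profiled with the 10x Chromium 3′ kit, with 1 library per group. The series title names Tex10; the tagged protein, the presence of a tag in the DMSO cells and the clonal origin of the line are not given in the labels.

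Klf4 is a zinc-finger transcription factor that, with Klf2, Klf5, Esrrb, Tfcp2l1 and Nanog, keeps mouse embryonic stem cells in the naive state, the ground state of the pre-implantation epiblast. Tcl1 is a small cofactor that binds the kinase Akt and favours its activation, and it is abundant in embryonic stem cells and early embryos. Cultured embryonic stem cells express several naive genes unevenly from cell to cell, and lose them as they leave the naive state. Mras encodes a Ras-family GTPase, and Rhox6 and Rhox9 encode X-linked homeobox proteins.

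Tcl1 and Klf4 lie on different chromosomes. In GENCODE M21 (mm10), whose identifiers for these genes are those of the files, Tcl1 is the minus-strand gene at chr12:105216750-105222793, Klf4 the minus-strand gene at chr4:55527143-55532466 and Mras the minus-strand gene at chr9:99385420-99437381. The stretches upstream of Tcl1 and Klf4 are shown because these 2 genes define the cells. They come from the RefSeq promoter table (GRCm38.p6), cut to the bases upstream of the start that no GENCODE M21 exon covers, and read 5′ to 3′ on the gene's strand. The Tcl1 stretch is chr12:105222794-105222987 and the Klf4 stretch is chr4:55532476-55532725. Capitals mark CACCC on either strand, the core letters of the site that Klf factors bind.
Tcl1: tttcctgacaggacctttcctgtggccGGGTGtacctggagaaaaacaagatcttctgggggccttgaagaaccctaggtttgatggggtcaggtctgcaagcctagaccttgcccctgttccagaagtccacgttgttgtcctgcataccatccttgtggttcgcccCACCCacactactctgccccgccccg
Klf4: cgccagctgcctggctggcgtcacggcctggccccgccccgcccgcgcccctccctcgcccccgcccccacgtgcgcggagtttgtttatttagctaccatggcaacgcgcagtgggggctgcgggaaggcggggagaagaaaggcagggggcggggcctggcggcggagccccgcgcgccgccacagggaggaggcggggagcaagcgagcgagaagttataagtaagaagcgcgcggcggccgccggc
The letters CACCC occur 2 times in the Tcl1 stretch and 0 times in the Klf4 stretch. Other forms of the site were not searched, so 0 matches does not mean that a stretch lacks Klf sites. Among 27025 genes in the table, 59.8% hold them in a window of 300 bases, so a match is common and is a description only.

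The Tcl1/Klf4-high cells carried 1053 Tcl1 UMIs and 1005 Klf4 UMIs, with at most 7 Tcl1 UMIs or 6 Klf4 UMIs in 1 cell. UMIs of both genes were found in 345 cells (57.8%), of Tcl1 only in 134 (22.4%) and of Klf4 only in 118 (19.8%). The number of cells dropped steeply and without a gap as the UMI count rose. Among cells without Rhox6 and Rhox9 UMIs, 1276 had 2 UMIs, just outside the rule, 415 had 3, just inside it, and 126 had 4. The class is a range of a per-cell count, set by the rule, and is not given a cell type name here. Another 106 cells had 3 or more UMIs and also UMIs of Rhox6 or Rhox9, and stayed out.

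**Figure D1:**
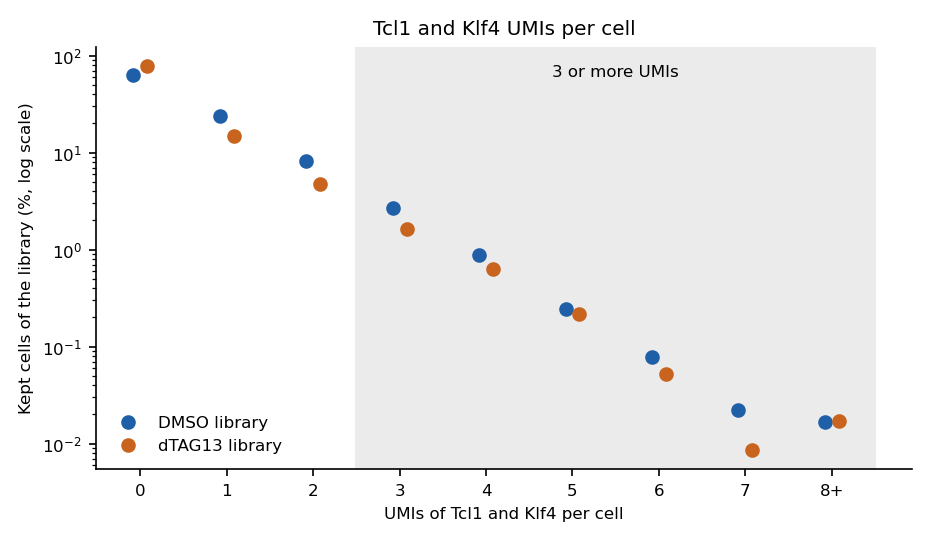
Percent of kept cells of each library (vertical axis, log scale) by the number of Tcl1 and Klf4 UMIs per cell (horizontal axis), before the condition on Rhox6 and Rhox9; blue points are DMSO and orange points dTAG13. The DMSO share runs from 63.7% at 0 UMIs to 8.26% at 2 and 2.69% at 3, with no break at the start of the shaded range.

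The UMIs of Tcl1 and Klf4 are given together as a description, since each was found in few cells and sparse counts blur any tie between them. With every cell thinned to 4000 UMIs, which left out shallower cells and kept 15908 DMSO cells, a Klf4 UMI was found in 12.5% of cells without Tcl1 UMIs (12.0 to 13.1%) and in 14.1% of cells with 1 (12.7 to 15.6%). The share was 17.9% of the 319 cells with 2 Tcl1 UMIs (13.8 to 22.5%) and 20.9% of the 43 cells with 3 or more (10.0 to 36.0%). The variance over the mean of thinned UMIs, which is 1 for counts that vary by sampling alone, was 1.12 for Tcl1 and 1.21 for Klf4. It was 4.20 for Rhox6 and 3.55 for Rhox9. The same rule applied to thinned cells was met by 167 of 15908 cells (1.05%). In the unthinned cells a Tcl1 UMI was present in 22.8% and a Klf4 UMI in 18.6%; the thinned shares were 16.1% and 12.9%. No cell type that lacks these genes was defined, so their background share of cells is not measured. Of 658 UMIs of the Zscan4 family, genes of a rare state, 57 (8.68%) lay outside the 32 cells with 5 or more of them, which bounds from above how far free RNA spread that family.

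Depth differed with the rule. The median was 7317 UMIs in Tcl1/Klf4-high cells and 5656 in comparison cells. A depth-matched set was therefore drawn, the 2 comparison cells nearest in total UMIs for each Tcl1/Klf4-high cell, 1194 cells with a median of 7315 UMIs. The sums behind the ratios are 4813372 UMIs over Tcl1/Klf4-high cells and 51873375 over comparison cells. Mitochondrial UMIs made up a median of 2.53% and 2.44%. After thinning, 88.8% of Tcl1/Klf4-high cells were called G2/M (85.9 to 91.2%), against 82.1% of comparison cells (81.2 to 83.0%) and 88.9% of depth-matched cells (86.9 to 90.6%). The gap to all comparison cells was thus present in cells thinned to the same UMIs, and was absent against cells matched on their original UMIs. Of all thinned DMSO cells, 83.7% were called G2/M, 15.9% S and only 0.415% G1. The calls rank scores of gene lists within each cell and were not checked against measured phases, so they are not read as true phase shares. Scrublet called 0 doublets in each library, which was taken as the caller not having worked, so doublets were not removed; 18 Tcl1/Klf4-high cells (3.02%) were above the 99th percentile of UMIs. The 2 libraries share 63 kept barcodes, 4 of them in Tcl1/Klf4-high cells.

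Between Tcl1/Klf4-high and comparison cells, few genes outside the rule differed by much. CPM, the UMIs summed over the cells of a set and scaled to a common total as is usual, was compared for 4498 genes with at least 20 CPM over all kept DMSO cells. A ratio of 1.5 or more was reached by 24 genes (0.534% of those measured) and the reverse by 21 (0.467%). All 45 intervals excluded 1, and the median log2 ratio of all genes was 0.03 with an SD over genes of 0.17. Against the depth-matched cells 41 genes were higher (0.912%) and 28 lower (0.622%). Of the 24 and 21, 22 and 18 were past the fold there too, and all were on the same side. The depth-matched cells are part of the comparison cells and the Tcl1/Klf4-high cells are the same, so this is not a separate check. With 1 library there is no replicate check of any of these differences, and the rule was proposed with results of these data in view.

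Mras, the gene given as a marker of these cells but not used by the rule, was among the highest. Its level was 85.4 CPM in Tcl1/Klf4-high cells and 48.1 CPM in comparison cells, a ratio of 1.78 (1.60 to 1.97), and the ratio to depth-matched cells was 2.0. In thinned cells a Mras UMI was found in 27.5% of Tcl1/Klf4-high cells (23.9 to 31.3%) and 16.2% of comparison cells (15.4 to 17.0%); before thinning the shares were 44.9% and 21.9%. Mras was thus higher in level, but most Tcl1/Klf4-high cells held no Mras UMI.

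The 15 highest genes, leaving out predicted genes, ribosomal protein genes and rarely detected genes, ran from a ratio of 1.91 to 1.57. Aard led with 111 against 58.0 CPM (ratio 1.91, 1.74 to 2.10). Tbx3, a T-box factor of the naive network, followed with 126 against 70.4 CPM (1.79, 1.64 to 1.96). Sfrp1, a secreted Wnt antagonist, had 75.2 against 44.0 CPM (1.71, 1.52 to 1.91). Upp1, uridine phosphorylase, had 185 against 113 CPM (1.64), and Spp1, the secreted phosphoprotein osteopontin, had the highest level of the 15, with 427 against 271 CPM (1.57, 1.5 to 1.65). These genes encode proteins of unlike function: a transcription factor, secreted proteins, an enzyme and a GTPase.

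Apart from Mras, the other 9 had ratios of 1.67 to 1.57. They were the basic helix-loop-helix factor gene Tcf4, the protease inhibitor genes Spink1 and Serpinb6c, the tubulin gene Tubb2b, the titin gene Ttn, the adhesion gene Mpzl2, Zfp978, the peptidase gene Mme and the casein kinase gene Csnk1e. Tubb2b (ratio 1.65) has a near-identical copy in Tubb2a, which was also past the fold, and Zfp978 belongs to a family of similar genes, so their values are uncertain as single-gene values.

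The 15 lowest genes ran from 0.357 to 0.626. Tagln, which encodes the actin-binding protein transgelin, was at 12.0 CPM in Tcl1/Klf4-high cells and 33.7 CPM in comparison cells (0.357, 0.270 to 0.464). Cdkn1c, an imprinted gene for the cyclin-dependent kinase inhibitor p57, was at 11.0 against 27.6 CPM (0.399, 0.298 to 0.525). Lefty1, which encodes a secreted Nodal antagonist, was at the upper end of the list with 105 against 167 CPM (0.626, 0.571 to 0.685), and Car2, carbonic anhydrase 2, with 121 against 193 CPM (0.626). Tfap2c, a factor of trophoblast and germ cell precursors, had 20.4 against 34.8 CPM (0.584), the claudin gene Cldn7 had 26.8 against 43.7 CPM (0.613) and Rab25, an epithelial Rab GTPase, had 12.9 against 22.3 CPM (0.578). Hmgn5, Krtdap, Sfmbt2, Pla2g12a, Plk2, Ina and Cd24a lay between 0.558 and 0.623. Several of these rest on few transcripts: the Tcl1/Klf4-high cells together held 44 UMIs of Krtdap, 53 of Cdkn1c and 58 of Tagln.

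**Figure D2:**
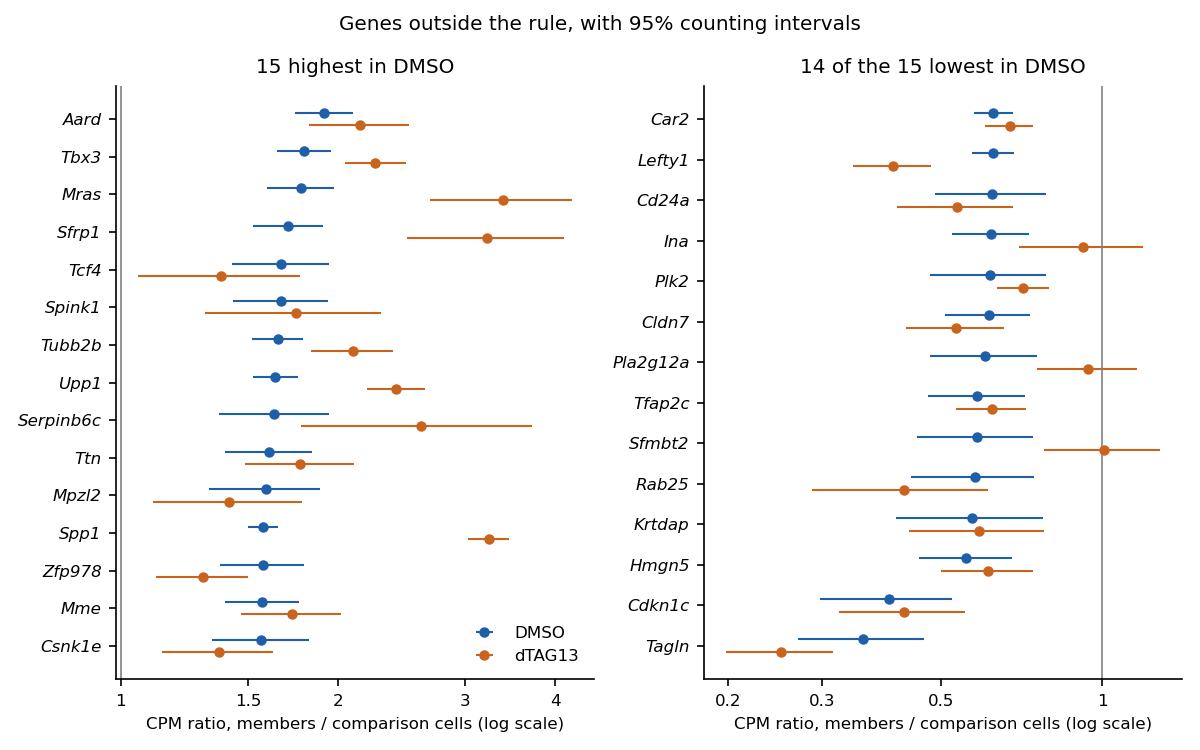
Ratio of CPM in cells that meet the rule to CPM in comparison cells (horizontal axis, log scale) for the 15 highest and 14 of the 15 lowest genes of the DMSO library, with 95% counting intervals; blue is DMSO and orange dTAG13. All 15 highest genes lie above 1 in both libraries, and the lowest genes drawn lie below 1 in dTAG13 except Sfmbt2, at 1.01.

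Naive pluripotency genes other than Tcl1 and Klf4 were mostly higher, by small ratios. Of 19 listed, 17 were measured: 14 had a ratio above 1 and 13 an interval above 1, where 57.7% and 17.4% of all 4498 measured genes did. Only Tbx3 reached the fold, which 0.534% of all genes did, and none was lower by it. Their median log2 ratio was 0.29, against 0.03 for all measured genes, and 0.31 against depth-matched cells. Zfp57, which protects imprinted methylation, had 111 against 74.5 CPM, a ratio of 1.5 that fell short of the fold before rounding. The methylcytosine dioxygenase gene Tet2 had 87.3 against 62.1 CPM (1.41, 1.27 to 1.56). Among the naive transcription factors, Esrrb had 58.6 against 43.0 CPM (1.36, 1.20 to 1.54), Nanog 105 against 78.7 CPM (1.33, 1.21 to 1.46), Klf5 91.8 against 73.7 CPM (1.25) and Tfcp2l1 85.8 against 69.0 CPM (1.24). Zfp42, also called Rex1, a widely used naive marker, had 791 against 605 CPM (1.31, 1.26 to 1.35).

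Not every naive gene shared the shift. Klf2, the factor most like Klf4 in the list, had a ratio of 1.05 (1.01 to 1.10). Dppa5a, by far the most abundant gene of the list, was at 7074 against 7400 CPM (0.956, 0.945 to 0.967), Pecam1, an adhesion receptor, at 0.934 (0.777 to 1.11) and Dppa3, a maternal factor also called Stella, at 34.1 against 42.4 CPM (0.804, 0.682 to 0.943). In the 579 thinned Tcl1/Klf4-high cells, the summed naive UMIs without Tcl1, Klf4 and Dppa5a had a median of 11 per cell, against 9 in comparison cells and in depth-matched cells. Without thinning the medians were 21, 12 and 17. With Dppa5a kept, which holds most UMIs of the list, the thinned medians were 39 in Tcl1/Klf4-high and 38 in comparison cells, and the shares above the 90th percentile of comparison cells were 6.74% (4.83 to 9.09%) and 9.22% (8.57 to 9.90%), in the other order. Without Dppa5a, 16.9% of the Tcl1/Klf4-high cells (14.0 to 20.2%) exceeded the 90th percentile of comparison cells, against 7.60% of the comparison cells themselves (7.0 to 8.22%), so the 2 distributions overlapped widely.

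**Figure D3:**
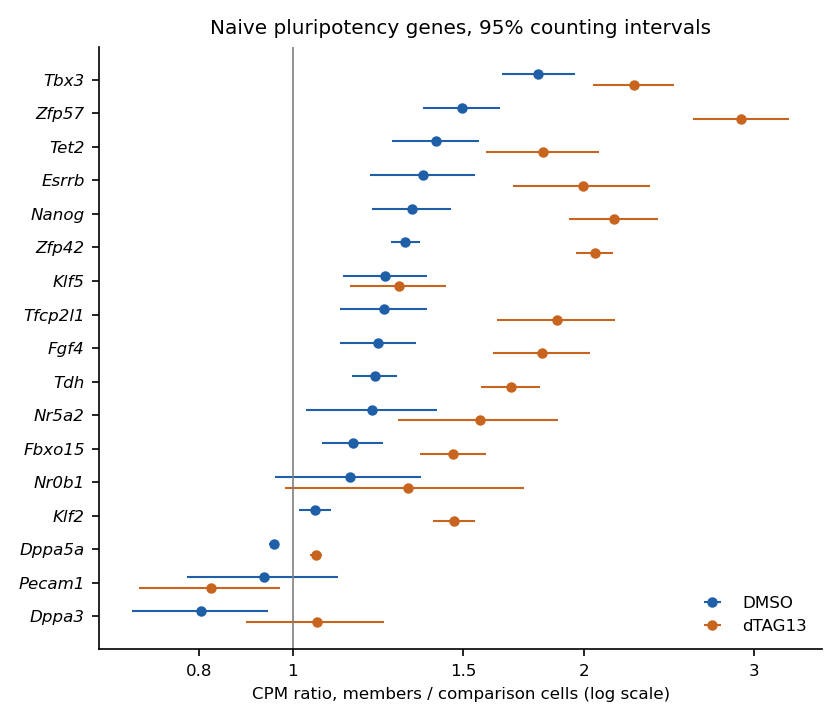
Ratio of CPM in cells that meet the rule to CPM in comparison cells (horizontal axis, log scale) for the 17 measured naive pluripotency genes outside the rule, with 95% counting intervals, in DMSO (blue) and dTAG13 (orange). In DMSO 14 of 17 lie above 1, from Tbx3 at 1.79 down to Dppa3 at 0.804.

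Core pluripotency genes, active in the naive state and after it, had a median nearer 1 than the naive genes. All 13 listed were measured, none passed the fold in either direction, and the median log2 ratio was 0.07. Still, 8 had a ratio above 1 and 7 an interval above 1, where 57.7% and 17.4% of all measured genes did. The interval was below 1 for 1 gene. Pou5f1 had 654 against 625 CPM (1.05) and Sox2 298 against 281 CPM (1.06). The largest of this list were Trim28, the corepressor that works with Zfp57, at 1.28 (1.20 to 1.36) and the Nodal co-receptor gene Tdgf1 at 1.22 (1.17 to 1.28). Against depth-matched cells both were at 1.13. Tex10, the gene in the series title, was at 79.8 against 82.7 CPM (0.964, 0.866 to 1.07).

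The signalling lists moved little. Of 8 measured LIF and Stat3 pathway genes, the pathway that sustains the naive state in culture, none passed the fold, and the median log2 ratio was 0.10. The kinase gene Pim3 had a ratio of 1.28 (1.11 to 1.48). Socs3, the feedback inhibitor and Stat3 target, was too low to be measured at 15.4 against 7.87 CPM, with a ratio of 1.95 (1.5 to 2.51); it was picked out after its values were seen. Of 11 measured Ras and PI3K-Akt genes, the path that Tcl1 serves, only Mras passed the fold and the median log2 ratio was 0.01. Eras, a Ras gene of embryonic stem cells, had 67.3 against 52.3 CPM (1.29, 1.14 to 1.45). Against depth-matched cells its ratio was 1.5, short of the fold before rounding.

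Lefty1 was the exception in the Nodal list, of which 7 genes were measured, 0 were higher and 1 was lower by the fold, with a median log2 ratio of 0.06. Its ligand gene Nodal was at 38.9 against 40.3 CPM (0.963), Lefty2, the other antagonist, at 102 against 89.9 CPM (1.13, 1.03 to 1.24), and Skil, a Smad corepressor and target, at 39.3 against 55.5 CPM (0.707, 0.607 to 0.820). In the Wnt list 1 of 5 measured genes, Sfrp1, was higher by the fold. None of 3 measured FGF and ERK genes, 4 BMP and Id genes, 12 glycolysis genes, 10 cholesterol synthesis genes, 7 integrated stress response genes, 11 chaperone genes or 29 ribosome biogenesis genes passed it in either direction. Over 50 mitotic and G2 genes the median log2 ratio was 0.15, and 0.03 against depth-matched cells.

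In the imprinted and p53 lists 2 genes each were lower by the fold, where 0.467% of all genes were. Of 7 measured imprinted genes none had a ratio above 1, and 5 had an interval below 1, where 9.38% of all genes had one. Cdkn1c and Peg3 were those past the fold, with a median log2 ratio of -0.40. Peg3, a zinc-finger gene, had 26.2 against 41.5 CPM (0.630, 0.523 to 0.755). Phlda2, a growth-restraining imprinted gene, had 47.8 against 67.6 CPM (0.707, 0.616 to 0.808). Of 16 measured p53 targets 2 were lower by the fold, Plk2 at 14.5 against 23.6 CPM (0.617) and Mdm2, the ubiquitin ligase that restrains p53, at 33.4 against 52.2 CPM (0.641, 0.544 to 0.752). With 167 cells chosen after thinning, set against 9458 comparison cells, the Mdm2 log2 ratio was 0.07 in place of -0.64. That value is small and given without an interval. The median of the p53 targets was -0.15.

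The marker lists of other cell types differed in direction. None of 13 primitive streak genes was measured, with a summed level of 20.6 CPM in Tcl1/Klf4-high and 17.9 CPM in comparison cells. The 2-cell-like list summed to 3.95 against 10.2 CPM, and 12 of its 13 genes in the files were at 0 in the Tcl1/Klf4-high cells. Genes at 0, here and below, had no UMI among the 4813372 of these cells. Zeros are not given for the comparison cells, whose sum of 51873375 UMIs makes them less likely there. Of 3 measured formative pluripotency genes none passed the fold and the median log2 ratio was -0.19; Dnmt3b was at 0.861 and Dnmt3l at 1.31. The extraembryonic endoderm list summed to 223 against 173 CPM, mostly from Sparc, a matrix protein gene, at 189 against 143 CPM (1.32, 1.23 to 1.41); Lamb1 was at 0.869, none of the 2 measured genes passed the fold, and the defining factor gene Gata6 was at 0. The germ cell list summed to 195 against 205 CPM, and 1 of its 4 measured genes, Tfap2c, was lower by the fold, with a median log2 ratio of -0.43. Of the 4, 3 had an interval below 1, and Rhox5 went the other way. It was at 51.5 against 36.7 CPM (1.40, 1.22 to 1.60), with a ratio of 1.60 against depth-matched cells. Of 7 measured epithelial genes 1, Cldn7, was lower by the fold, with a median log2 ratio of -0.14. The trophoblast list summed to 51.3 against 64.0 CPM and the fibroblast list, with Tagln as its only measured gene, to 17.5 against 40.9 CPM, with 5 of 10 fibroblast genes at 0. Keratin genes were low in both sets: Krt8 was at 11.4 against 10.1 CPM and Krt18 at 6.44 against 9.16 CPM. The part of such cells in the low ratios of Tagln and Cdkn1c was not tested. In cells without UMIs of Krt8, Krt18, Tagln and Cdkn1c, an alternative added after the lowest genes were seen, 458 Tcl1/Klf4-high cells remained, and 9 of the 15 lowest genes were past the fold, with 2 having no value by construction. The mesenchymal list summed to 230 against 169 CPM and the neural ectoderm list to 88.7 against 67.5 CPM. The mesenchymal genes Vim and Fn1 were at 1.5 (1.37 to 1.64) and 1.25 (1.14 to 1.37), and the Vim ratio fell short of the fold before rounding. The neuronal tubulin gene Tubb3 was past the fold, at 76.0 against 50.2 CPM (1.51, 1.35 to 1.69).

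The levels were graded over the UMIs of the rule genes. Cells without Rhox6 and Rhox9 UMIs were divided into 5 classes by their Tcl1 and Klf4 UMIs, and 12 genes were followed that were picked after their values were seen. Mras was at 48.1 CPM in cells with 0 UMIs, 72.1 with 1, 87.7 with 2, 83.1 with 3 and 89.6 with 4 or more. Most of its difference was thus already present in cells with 1 or 2 UMIs, outside the rule. Tbx3 went from 70.4 to 97.7, 115, 120 and 138 CPM, and Spp1 from 271 to 357, 399, 418 and 441 CPM, higher in each class than in the one before. Nanog went from 78.7 to 92.1, 99.2, 95.6 and 121 CPM.

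Among the genes with low ratios the gradient ran the other way. Tagln went from 33.7 CPM in cells with 0 UMIs to 18.4, 12.7, 14.2 and 8.20 CPM, and Lefty1 from 167 to 131, 118, 114 and 87.3 CPM. Lefty1 was lower in each class than in the one before, while Tagln was not. Of the 15 highest genes 9 were higher in each of the 4 steps, and of the 15 lowest 3 were lower in each. For 13 genes of each set of 15 the cells with 2 UMIs lay between the comparison cells and the Tcl1/Klf4-high cells. Median depth also grew over the classes, from 5656 to 8042 UMIs, and its part in the gradient was not tested.

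**Figure D4:**
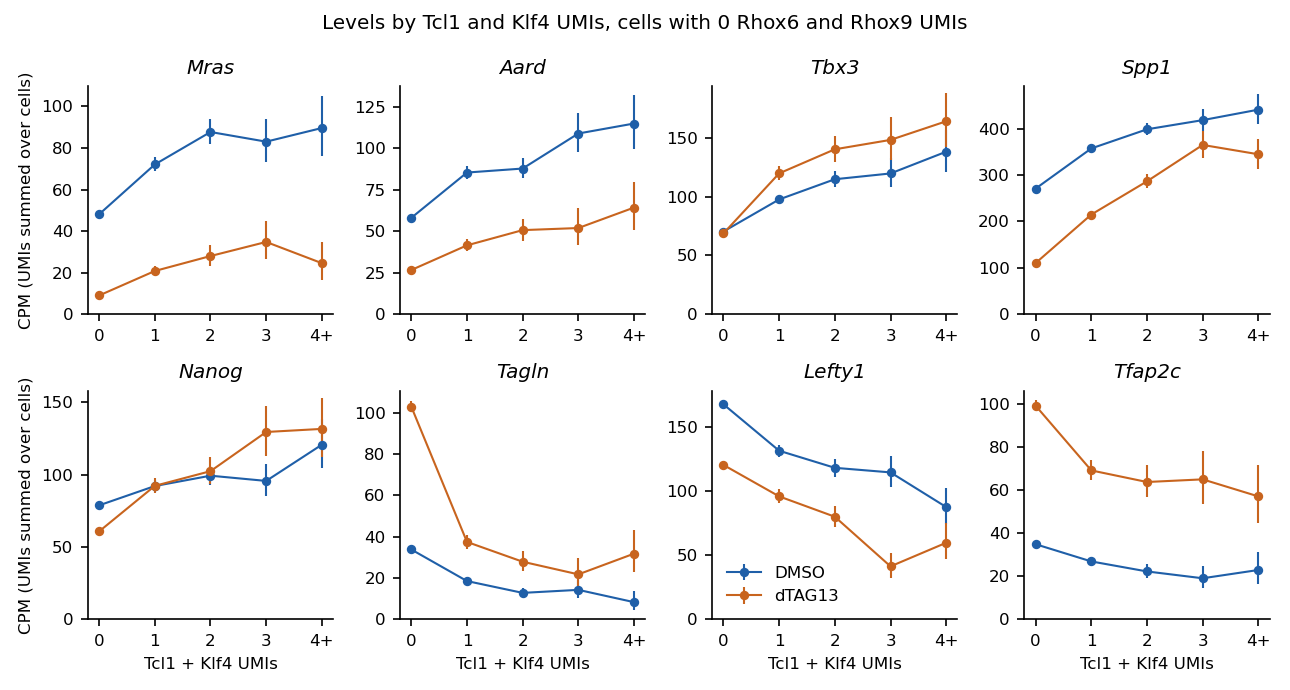
CPM with 95% counting intervals (vertical axes, from 0) of 8 genes in cells with 0 Rhox6 and Rhox9 UMIs, by their Tcl1 and Klf4 UMIs (horizontal axes), in DMSO (blue) and dTAG13 (orange). In DMSO Mras goes from 48.1 to 89.6 CPM and Tagln from 33.7 to 8.20 CPM between 0 and 4 or more UMIs.

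Cells that met the rule through Tcl1 alone and through Klf4 alone were not alike. Against the comparison cells, 55 genes were higher by the fold (1.22%) and 142 lower (3.16%) in Tcl1-only cells, 109 (2.42%) and 99 (2.2%) in Klf4-only cells, and 43 (0.956%) and 27 (0.6%) in cells with both. Compared directly, 290 of 4498 genes (6.45%) were higher by the fold in the 118 Klf4-only cells and 158 (3.51%) in the 134 Tcl1-only cells, sets of 873611 and 1044320 UMIs in which counting error is large. The split was made after first values were seen, and the genes named from it were picked for their difference. Lefty1 differed most plainly: its ratio to the comparison cells was 1.02 in Tcl1-only cells (0.878 to 1.19) and 0.356 in Klf4-only cells (0.265 to 0.467), and the direct ratio of Klf4-only to Tcl1-only cells was 0.347 (0.250 to 0.475). The low Lefty1 level was therefore not seen in cells that met the rule through Tcl1 alone. Ina, which encodes the neurofilament-like protein internexin, had 1.05 and 0.402, and Phlda2 0.992 and 0.373.

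Naive genes were closer to the Klf4 side. The median log2 ratio of the naive list was 0.13 in Tcl1-only cells, 0.38 in Klf4-only cells and 0.29 in cells with both. Tbx3 had a ratio of 1.29 in Tcl1-only and 1.97 in Klf4-only cells, with a direct ratio of 1.52 (1.15 to 2.01), and Zfp42 had 1.11 and 1.43, with a direct ratio of 1.28 (1.15 to 1.42). Aard had 1.34 and 2.13, and Upp1 1.19 and 1.73. For Nanog (1.09 and 1.44) the direct ratio of 1.31 had an interval that included 1 (0.978 to 1.77). Tfap2c was lowest in Tcl1-only cells, at 0.330 against 0.789 in Klf4-only cells.

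Mras did not follow that order. Its ratio was 1.91 in Tcl1-only cells (1.54 to 2.34), 1.77 in cells with both and 1.62 in Klf4-only cells (1.25 to 2.06), and the direct ratio of 0.847 had an interval that included 1 (0.611 to 1.17). Sfrp1 was alike, with 2.02, 1.65 and 1.51. Of the 15 highest genes all 15 were above 1 in Tcl1-only, Klf4-only and double cells; of the 15 lowest 15 were below 1 in Klf4-only and in double cells and 13 in Tcl1-only cells, Lefty1 and Ina being the others.

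**Figure D5:**
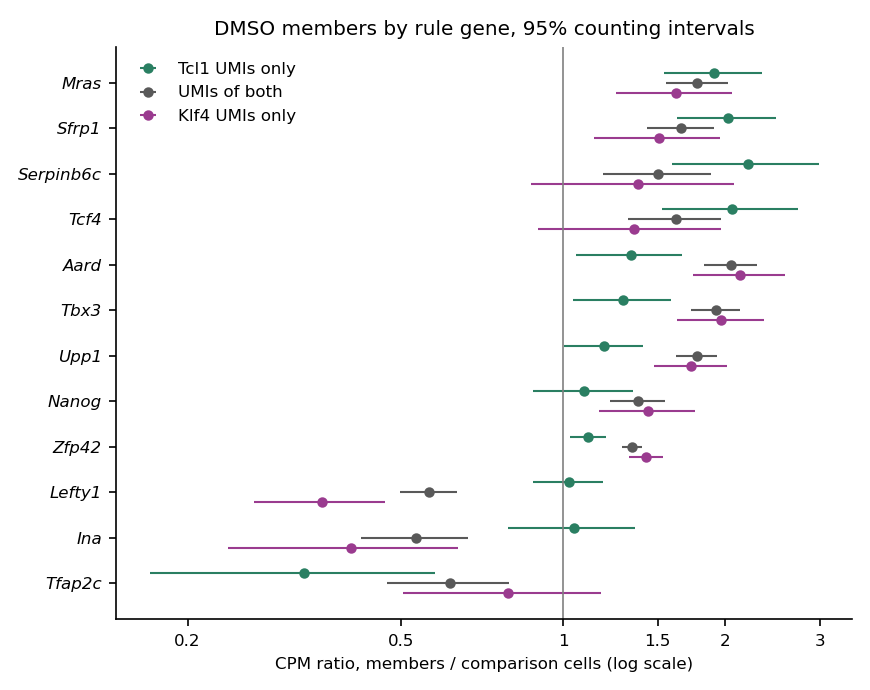
Ratio of CPM to comparison cells (horizontal axis, log scale) with 95% counting intervals for 12 genes in DMSO cells that met the rule with Tcl1 UMIs only (green), UMIs of both (grey) and Klf4 UMIs only (purple). Lefty1 is at 1.02 with Tcl1 only and 0.356 with Klf4 only, while the 3 Mras intervals overlap.

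Cells on the Rhox side of the same library were set beside them, without a test, since both sets use the same comparison cells. The 1267 kept DMSO cells with 3 or more UMIs of Rhox6 and Rhox9 and none of Tcl1 or Klf4 had 136 genes higher by the fold (3.02%) and 171 lower (3.8%). They had a Mras ratio of 0.371, a Sfrp1 ratio of 0.261, a Spp1 ratio of 0.523 and a Tfap2c ratio of 2.42. Of the 15 genes highest in Tcl1/Klf4-high cells, 3 were above 1 in these cells and 8 were lower by the fold. Of the 15 lowest, 5 were below 1 and 4 were higher by the fold. The naive list had a median log2 ratio of -0.09 there. Lefty1 was low in both, at 0.626 and 0.535.

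The dTAG13 library gave the same rule a separate set of cells. There 281 of 11588 kept cells (2.42%, 2.15 to 2.72%) met it, with a median of 9178 UMIs, and 8113 cells had none of the 4 genes. After thinning the share was 0.420% (45 of 10720 cells). Tcl1 was the scarcer gene: a Tcl1 UMI was found in 4.87% of thinned dTAG13 cells and 16.1% of thinned DMSO cells, and a Klf4 UMI in 9.90% and 12.9%. In the dTAG13 cells that met the rule, Tcl1 made up 22.1% of rule UMIs, against 51.2% in DMSO, and 152 met it through Klf4 only, 115 through both and 14 through Tcl1 only. The 2 sets of cells are thus weighted differently towards the rule genes.

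Over the 4829 genes measured in dTAG13, 101 (2.09%) were higher and 123 (2.55%) lower by the fold. Most genes with a DMSO difference had one on the same side in dTAG13. Of the 24 higher genes 17 (70.8%) were past the fold and all 24 were above 1, where 2.91% of the 4498 genes were higher by the fold. Of the 21 lower genes 13 (61.9%) were past the fold and 20 were below 1, where 1.45% of genes were lower by the fold; Sfmbt2 was the other, at 1.01. None was past the fold in the opposite direction. The median log2 ratio was 0.66 in DMSO and 0.84 in dTAG13 for the 24, and -0.70 in both for the 21.

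The log2 ratio was farther from 0 in dTAG13 than in DMSO for 11 of the 15 highest genes and nearer for 4, and farther for 5 of the 15 lowest and nearer for 10. Tcf4 was nearer, at 1.38 after 1.67 in DMSO, as were Zfp978 (1.30 after 1.57), Ina (0.921 after 0.620) and Pla2g12a (0.942 after 0.603). Against depth-matched cells of each library, Tcf4 was at 1.71 after 1.67 in DMSO and Zfp978 at 1.78 after 1.74, so neither was nearer. Ina (0.851 after 0.568) and Pla2g12a (0.836 after 0.576) still were. The counts of genes farther and nearer are against all comparison cells. Mras was at 30.5 CPM in cells that met the rule and 9.03 CPM in the comparison cells (3.38, 2.68 to 4.22), so that both dTAG13 levels were below both DMSO levels. Spp1 had 357 against 110 CPM (3.23, 3.03 to 3.45), Sfrp1 25.2 against 7.84 CPM (3.22, 2.49 to 4.11) and Tbx3 155 against 68.8 CPM (2.25, 2.04 to 2.48). Tagln had 25.9 against 103 CPM (0.251, 0.198 to 0.314) and Lefty1 48.8 against 120 CPM (0.406, 0.343 to 0.478). Naive genes had a median log2 ratio of 0.75, and 10 of 17 passed the fold. Zfp57 had 113 against 39.0 CPM (2.91, 2.59 to 3.26), Nanog 130 against 60.7 CPM (2.15, 1.93 to 2.39) and Zfp42 721 against 351 CPM (2.05, 1.96 to 2.14). Core pluripotency genes had a median log2 ratio of 0.22, and 1 of 13, Trim28, passed the fold (1.76, 1.61 to 1.92). The naive UMIs per thinned cell, without Tcl1, Klf4 and Dppa5a, had a median of 11 in the 277 cells that met the rule and 6 in comparison cells. Differences between the libraries in these ratios were not tested, with 1 library each. Keratin-bearing cells are part of the dTAG13 comparison set, where Krt8 was at 33.2 CPM against 9.29 CPM in the cells that met the rule and Krt18 at 34.0 against 5.31 CPM; their part in the dTAG13 ratios was not tested.

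Tcl1/Klf4-high cells did not form a group of their own in expression space. Over 30 principal components of 2000 variable genes without the rule genes, 7.94% of their 15 nearest neighbours were Tcl1/Klf4-high, where such cells made up 3.34% of the library. The share was 3.27% for comparison cells, 4.46% for depth-matched cells and 0.652% for Rhox6/Rhox9-high cells. No Tcl1/Klf4-high cell had more than 6 of its 15 neighbours in the class, and 35.2% had none. In dTAG13 the cells that met the rule had 10.3% of neighbours that did, against 2.42% of the library.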

How the data were processed

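Each deposited matrix gives UMI counts, whole numbers, for every gene in every barcode. Cell Ranger 8.0.1 wrote them, per the file headers. Seurat 5.0.1, R 4.3.2 and the build mm10 are listed without a role in the submitters' processing notes. Barcode filtering and the counting of near-identical genes are not given in the sources used here. Of 33696 gene identifiers 5.15% are absent from GENCODE M21, so the annotation behind the counts is not settled. Both libraries were read whole: 17958 and 11644 barcodes, of which 17878 DMSO and 11588 dTAG13 cells were kept. The members and gene lists were chosen with earlier results of these data known.

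Counts were summed over cells and given as CPM, with exact Poisson, conditional binomial and Clopper-Pearson intervals for counting error. No test was computed, with 1 library per group. Genes named are the 15 highest and 15 lowest ratios among genes with at least 20 CPM and a UMI in 5% of cells, leaving out predicted genes, mitochondrial genes, ribosomal protein genes and those with under 50% of the log2 ratio, or the other sign, against depth-matched cells; up to 4 per list with at least 10 CPM; and a fixed set of pluripotency genes, Mras, Eras, Rhox5 and Tex10. Genes named outside the rule are those said to be picked after their values were seen, and members of the fixed lists. Of the 15 lowest genes, 1 is not reported here by name. Phases, neighbours and Scrublet scores used scanpy 1.11.5 (Python 3.11.15). Interval code was tested on simulated data; intervals of the genes changed 2-fold covered the true value less often than nominal, and the test was then read over all changed genes pooled. The alternatives are in the closing section.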

Additional observations from a re-analysis of the deposited data

Results flagged for a closer look

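A few genes lay on opposite sides of 1 in the 2 libraries, with both counting intervals excluding 1; the difference between the libraries was not tested. Tcf15, a factor of early epiblast exit, had a ratio of 0.876 (0.797 to 0.960) in DMSO and 1.55 (1.31 to 1.82) in dTAG13. E2f8, a cell cycle repressor, had 0.726 (0.587 to 0.888) and 1.42 (1.08 to 1.85). The immediate-early gene Ier2 had 0.911 (0.847 to 0.979) and 1.10 (1.01 to 1.21). Dppa5a had 0.956 (0.945 to 0.967) and 1.06 (1.04 to 1.07), both close to 1. These 4 are all such genes among the 126 named ones. Against depth-matched cells both E2f8 intervals included 1, at 0.798 (0.627 to 1.01) in DMSO and 1.30 (0.924 to 1.82) in dTAG13. The DMSO interval of Ier2 also included 1 there, at 0.969 (0.889 to 1.05). The intervals of Tcf15 and Dppa5a still excluded 1 in both libraries.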

How the results depend on the processing

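Of 16 alternatives, 15 planned and 1 added after the data were seen, all left the 15 highest genes above 1. The 15 lowest stayed below 1, except that 2 had no value in the added one. Fewer stayed past the fold: 8 of the highest and 11 of the lowest with a minimum of 2 UMIs. The counts were 10 and 10 without the Rhox condition, and 10 and 11 with the rule on thinned cells. Choosing members by Tcl1 UMIs alone, with Klf4 UMIs allowed, gave 187 cells and left 12 and 12. Choosing by Klf4 UMIs alone, with Tcl1 UMIs allowed, gave 169 cells and left 10 and 13. These sets are wider than the Tcl1-only and Klf4-only cells described above. The added alternative left 13 and 9. The naive list median stayed between 0.18 and 0.43. With the rule on thinned cells, 66 of the 126 named genes had a ratio outside its main interval and 59 inside it. The other, Mdm2, changed sign. The number outside was 46 with members chosen by Tcl1 UMIs and 44 by Klf4 UMIs. It was 28 with a minimum of 4 UMIs and 27 against depth-matched cells. It was 13 without the Rhox condition, 11 with a minimum of 2 UMIs and at most 6 in the rest. The other summary values that moved follow, against a share of 3.34%, 24 higher and 21 lower genes and a Mras ratio of 1.78. A minimum of 2 UMIs gave a share of 10.5% and 12 higher genes; a minimum of 4 gave 1.02%, 60 higher and 58 lower. Without the condition on Rhox6 and Rhox9 the share was 3.93% with 11 lower genes. The rule on thinned cells gave 1.05%, 94 higher, 190 lower, a Mras ratio of 1.41 and a Mdm2 log2 ratio of 0.066, small and of the other sign. Depth-matched cells gave 41 higher genes and a Mras ratio of 2.0. The 187 cells chosen by Tcl1 UMIs gave 43 higher and 83 lower genes, and the 169 chosen by Klf4 UMIs 73 and 53. The cause of these moves was not tested. With no minimum CPM 2327 genes were higher and 1296 lower, and with a minimum of 50 CPM 10 and 5, by construction of the genes tested. Scaling by the median of ratios shifts all genes by 0.03 on the log2 scale. No paired analysis was possible because each group has 1 library; for the same reason none could be left out. Depth limits genes with few UMIs in 597 cells.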

Other observations

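The genes past the fold that are not yet described were looked at after their values were seen. Among the 24 higher genes these were 3 predicted genes, the second tubulin copy Tubb2a, and a handful of named genes. Rpl39l, a variant of a ribosomal protein gene known from the testis, had 176 CPM in Tcl1/Klf4-high and 105 CPM in comparison cells (ratio 1.68, 1.56 to 1.81), 2.04 against depth-matched cells and 1.81 in dTAG13. Its ratio was 1.66 in Tcl1-only and 1.67 in Klf4-only cells. Sgk1, a kinase of the Akt-related AGC family, had 80.0 against 52.4 CPM (1.53, 1.37 to 1.70) and 2.18 in dTAG13. Cmtm7, a membrane protein gene, had 58.6 against 38.1 CPM (1.54, 1.35 to 1.74) and 2.12 in dTAG13.

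Among the 21 lower genes, Lgals1, which encodes the carbohydrate-binding protein galectin-1, had 113 against 177 CPM (0.637, 0.583 to 0.695) and 0.614 in dTAG13. Sdc4, a heparan sulfate proteoglycan gene, had 43.2 against 68.8 CPM (0.628, 0.544 to 0.723) and 0.835 in dTAG13. The calcium-binding protein gene S100a6 had 39.9 against 60.1 CPM (0.663, 0.570 to 0.767) and 0.411 in dTAG13. The glutathione transferase gene Gstt2 had 17.0 against 26.3 CPM (0.647, 0.512 to 0.809).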
